A study of Mus musculus with 2 samples.

Results

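The miR-130/miR-301 family was followed in exosomes of the mouse colorectal cancer line CT26. Its 4 members, mmu-miR-130a-3p, mmu-miR-130b-3p, mmu-miR-301a-3p and mmu-miR-301b-3p (written below without the species prefix), were taken by name from the 1915 mature miRNAs listed for each library. The family was selected on the reads of its members in the contrast described here. Small RNA libraries were sequenced for the exosomes that parental cells release and for those of sphere-derived cancer stem cells (SDCSCs), 1 library per condition. CT26 cells are of Balb/C origin. Parental cells were kept in complete DMEM, with exosome-depleted fetal bovine serum during the collection, and SDCSCs were grown from the same line as spheres for 2 weeks in serum-free DMEM/F12 with N2 supplements, 10 ng/ml EGF and 10 ng/ml bFGF. The medium, serum included, and the cell state changed together, so their parts in any difference cannot be told apart. The spheres are an expanded culture and not a sorted population.

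MicroRNAs of one family share the seed, bases 2 to 8 from the 5′ end, which pairs with target mRNAs. The miR-130/miR-301 seed is carried on the 3p arm of each hairpin. In other systems miR-130a has been tied to angiogenesis in endothelial cells, miR-130 to repression of the adipogenic receptor PPARγ, and miR-301a to NF-κB activity in cancer cells. None of these activities was measured here.

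The mature sequences are shown because all reads of the family rest on telling them apart. They were taken from RefSeq (GRCm38.p6, the same assembly as the mm10 build of the submitters' processing notes), with the seed in capitals. RefSeq entries were matched by name for 1623 of the 1915 listed miRNAs, miR-301b-3p not being among them.
miR-130a-3p: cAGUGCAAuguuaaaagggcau
miR-130b-3p: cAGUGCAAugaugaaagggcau
miR-301a-3p: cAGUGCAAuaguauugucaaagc
Counted from 1 at the 5′ end, miR-130b-3p differed from miR-130a-3p by U11A and A13G. The first 10 bases of the pair were identical. For miR-301a-3p the first 9 bases matched miR-130a-3p, and 10 later positions differed, among them G10A, U11G and A14U. How the authors' counter treated mismatches is not given in the sources used here, so a read with an error at base 11 or 13 may have been assigned to the wrong member of the miR-130 pair. Without its sequence, miR-301b-3p was not compared, and wrong assignment of its reads to another member cannot be judged here.

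The genes lie at 3 loci. Mir130a (ENSMUSG00000065484.1) is on the minus strand at chr2:84741115-84741178, where it overlaps no other annotated gene, and the nearest protein-coding gene, Gm19426, is 991 bases away. Mir301 (ENSMUSG00000065589.1), the source of miR-301a, is on the plus strand at chr11:87113004-87113089, in an intron of Ska2 and on the same strand as this host gene. Mir130b (ENSMUSG00000065572.1) and Mir301b (ENSMUSG00000076288.1) are neighbours on the minus strand at chr16:17124061-17124142 and chr16:17124400-17124496. They are 257 bases apart, in an intron of 2610318N02Rik on the same strand.

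The deposited RPM values were whole multiples of the value of 1 read, which returned 32162 miRNA reads for parental exosomes and 3964 for SDCSC exosomes, with the highest entry taken for each miRNA. A count of 3 reads, taken as the floor of what can be shown, was 0.00933% of parental and 0.0757% of SDCSC reads. Of the 5 epithelial marker miRNAs examined (the miR-200 family), 0 had a read in parental and 2 in SDCSC exosomes, at 1 read each, so these epithelial markers were absent or nearly so in libraries labelled as colon cancer cell. The 3 intestinal markers (miR-192-5p, miR-194-5p and miR-215-5p) had 55 parental reads and 0 SDCSC reads together. The 7 blood cell markers summed to 1186 reads (3.69% of the library) in parental and 1 read (0.0252%) in SDCSC exosomes, with miR-486a-5p and miR-451a at 0 in the latter. The 5 muscle and mesenchymal markers took 4.39% and 5.40%, mostly as miR-143-3p (888 and 185 reads), miR-133a-3p being at 0 in SDCSC exosomes.

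In parental exosomes the family was mostly miR-130a-3p, and in SDCSC exosomes 7 reads of it were left. The 4 members summed to 190 reads in the parental library, 0.591% of miRNA reads (95% Wilson interval 0.513 to 0.681%). In the SDCSC library they summed to 7 reads, 0.177% (0.0856 to 0.364%). A share falls equally when a miRNA is less abundant and when others are more abundant, and these cannot be told apart here. At the parental share, 23.4 reads would have been counted in the SDCSC library. On the log2 scale the SDCSC share over the parental share came to -1.74, with an exact 95% interval from -3.08 to -0.67, or a 3.35-fold lower share; with 5 reads added to both libraries it was -1.002. The members were chosen with this contrast known and each condition has 1 library, so the ratios are given with no test. The intervals cover counting error only and not the spread between libraries. They may be too narrow even for counting error, because amplified reads are not independent molecules.

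miR-130a-3p, the most abundant member, was counted with 153 reads in parental exosomes (4178.62 RPM) and with 5 reads in SDCSC exosomes (1088.85 RPM). Its share was 0.476% (0.406 to 0.557%) against 0.126% (0.0539 to 0.295%). These Wilson intervals did not overlap, which is a description, as the family was chosen on these reads. How many other miRNAs had intervals apart was not counted, so the gap does not set miR-130a-3p apart from other miRNAs. At the parental share 18.9 SDCSC reads would have been counted. The share was 3.77-fold lower in SDCSC exosomes, a log2 ratio of -1.92 with an exact 95% interval from -3.56 to -0.66. With 5 reads added to both libraries the log2 ratio was -0.96. By reads it ranked 37 among the 328 miRNAs detected in parental exosomes. In SDCSC exosomes it held rank 52 of 124, a rank shared by 4 miRNAs.

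miR-301a-3p, the intronic member of Ska2, was the second in parental exosomes with 24 reads (655.47 RPM), 0.0746% of the library (0.0502 to 0.111%). It had 0 of 3964 reads in SDCSC exosomes, which allows a share of up to 0.0757%. That limit lies above the parental share, and at the parental share only 2.96 reads would have been counted. A lower share of miR-301a-3p was therefore not detectable at this depth, and no fold is given. The upper end of the exact interval of its log2 ratio was 0.43, so a rise beyond this lies outside the counting interval.

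miR-130b-3p had 13 reads in parental exosomes (355.05 RPM) and 2 reads in SDCSC exosomes (435.54 RPM). Its shares were 0.0404% (0.0236 to 0.0691%) and 0.0505% (0.0138 to 0.184%). These are close to each other, and the SDCSC count is below the floor. The log2 ratio was 0.32, and its exact 95% interval, from -2.87 to 2.46, holds large changes in either direction. At the parental share 1.60 reads would have been counted.

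miR-301b-3p, the hairpin neighbour of miR-130b, had 0 reads in both libraries. This allows a share of up to 0.00933% in parental and 0.0757% in SDCSC exosomes. As its sequence was not compared, wrong assignment of its reads to another member was not checked. The parental limit lies below the lower end of the Wilson interval of the neighbour miR-130b-3p (0.0236%). By the reads as assigned, the 2 hairpins of this locus were thus not represented at the same level in parental exosomes. In SDCSC exosomes the depth did not allow this comparison.

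**Figure D1:**
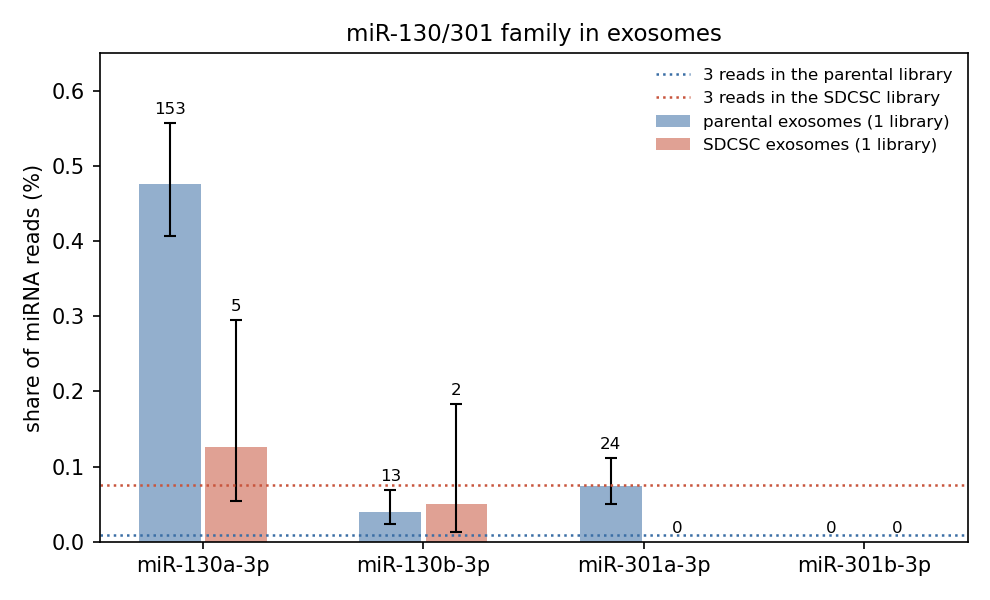
Share of miRNA reads (%) of each family member in the library of parental exosomes and in that of SDCSC exosomes. Bars are shares, lines 95% Wilson intervals where there was a read, and numbers above them the reads. Dotted lines are the share of 3 reads in each library, the limit for 0 reads. The intervals of the libraries are apart for miR-130a-3p (153 against 5 reads) and overlap for miR-130b-3p (13 against 2). This is a description, as the family was chosen on these reads, and how many other miRNAs had intervals apart was not counted.

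By reads, the order in parental exosomes was miR-130a-3p, miR-301a-3p, miR-130b-3p and miR-301b-3p. The interval of miR-130a-3p was apart from all others. Those of miR-301a-3p and miR-130b-3p overlapped, and their counts were not compared directly, so the order of these neighbours was not resolved. The limit of miR-301b-3p, 0.00933%, was below the rest. In SDCSC exosomes the intervals of miR-130a-3p and miR-130b-3p overlapped, the limit for the members with 0 reads lay above the lower ends of both, and no order was resolved.

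Most of the pooled difference rested on miR-130a-3p. Without it, the other 3 members had 37 parental reads and 2 SDCSC reads together, which gave a log2 ratio of -1.19 with an exact 95% interval from -4.29 to 0.77. This interval includes no change. The reads did not show whether the rest of the family went the same way.

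Among miRNAs with at least 1 read in each library, 2 of the 4 members could be compared with the rest. Of these, 1 was at least 1.5-fold lower in SDCSC exosomes (miR-130a-3p) and 0 were at least 1.5-fold higher. Over all 116 such miRNAs, 35.3% were at least 1.5-fold lower and 37.9% at least 1.5-fold higher. The median log2 ratio over the 116 was 0.06. The 2 members lay on opposite sides of 0, at -1.92 and 0.32, the latter from an SDCSC count below the floor. Their median of -0.80 is only the midpoint and describes neither. By log2 ratio, 17 of the 116 lay below miR-130a-3p and 62 below miR-130b-3p. Requiring an SDCSC read leaves out 212 miRNAs with a parental read only, so low ratios may be under-represented in this placing. Of all 328 miRNAs with a parental read, 64.6% had none in SDCSC exosomes, as did miR-301a-3p. These are descriptions, as the contrast is the one by which the family was chosen.

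**Figure D2:**
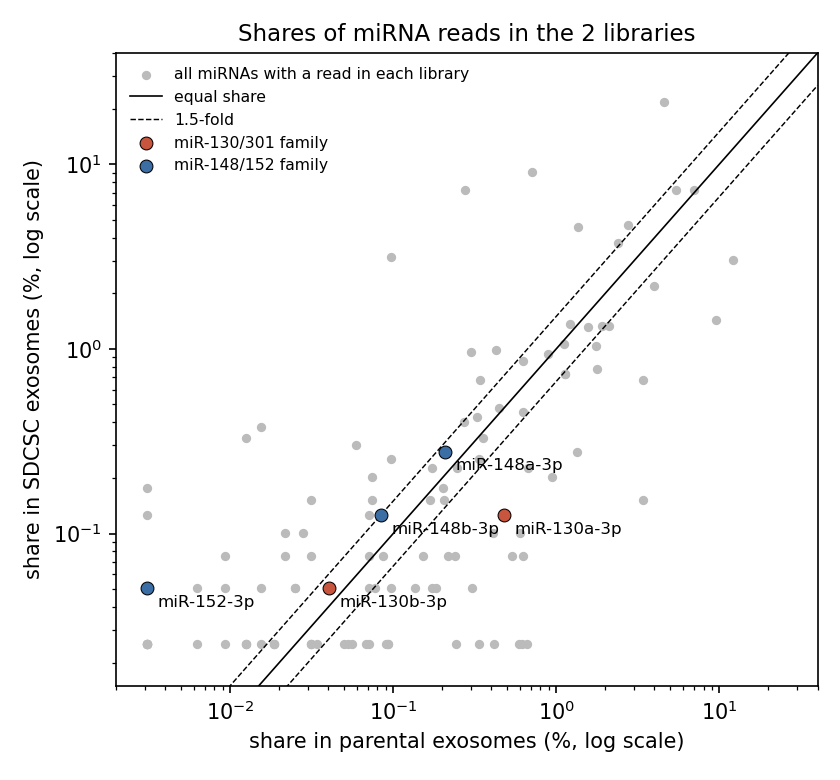
Share of miRNA reads in parental (x axis) and SDCSC exosomes (y axis), both in % on log scales, for the 116 miRNAs with a read in each library; the solid line marks equal shares and the dashed lines a 1.5-fold difference, with the miR-130/miR-301 family in red and the miR-148/miR-152 family in blue. miR-130a-3p lies below the dashed lines and miR-130b-3p between them; miR-301a-3p and miR-301b-3p, without an SDCSC read, are not plotted.

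The SDCSC reads of the members were also set beside those of miRNAs at a like parental level, with ranges chosen after the values were seen. There were 32 other miRNAs with 77 to 306 parental reads, and their SDCSC reads ran from 0 to 359 with a median of 6. Of these, 16 had more SDCSC reads than the 5 of miR-130a-3p and 16 had fewer. Of 54 other miRNAs with 12 to 48 parental reads, 32 had 0 SDCSC reads, as had miR-301a-3p. Of 60 others with 7 to 26 parental reads, 37 had 0, and 10 had more than the 2 reads of miR-130b-3p. The low SDCSC counts of the members thus lay within the range of miRNAs of like parental level.

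**Figure D3:**
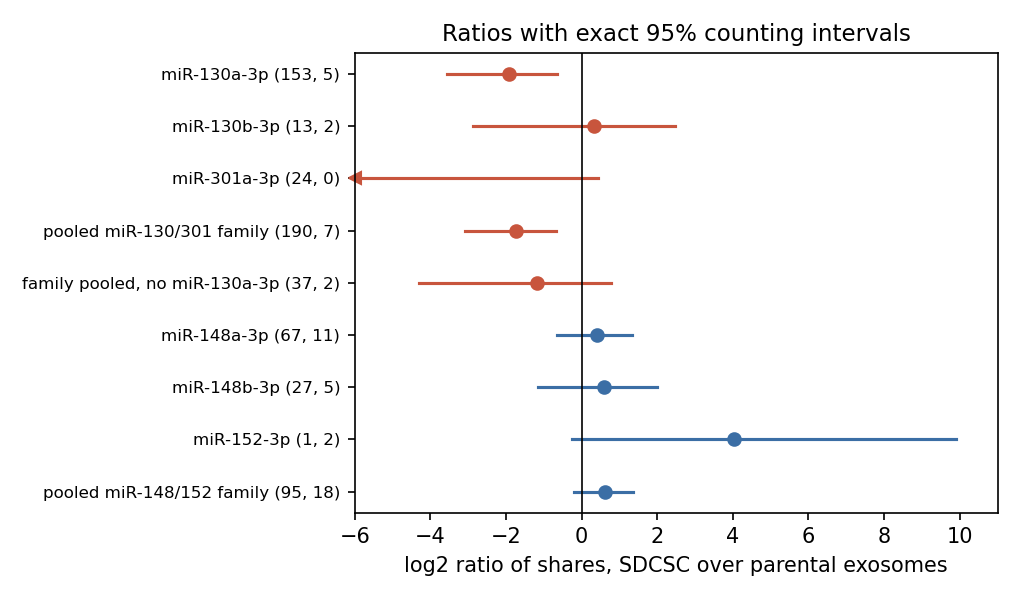
Log2 ratio of shares, SDCSC over parental exosomes, with exact 95% counting intervals, for the members of the miR-130/miR-301 family (red) and of the miR-148/miR-152 family (blue); the reads in parental and SDCSC exosomes stand in brackets. The intervals of miR-130a-3p and of the pooled family lie below 0 and all others include 0. The interval of miR-301a-3p has no lower end and no point, as it had 0 SDCSC reads. The values are a description, as the miR-130/miR-301 family was chosen on its reads.

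Within the family, the mix of members does not depend on the scaling between the libraries. In parental exosomes miR-130a-3p took 80.5% of the 190 family reads (Wilson interval 74.3 to 85.5%), miR-301a-3p 12.6% (8.64 to 18.1%) and miR-130b-3p 6.84% (4.04 to 11.4%). In SDCSC exosomes miR-130a-3p took 5 of 7 reads, 71.4% (35.9 to 91.8%), and miR-130b-3p 2 of 7, 28.6% (8.22 to 64.1%). The intervals of the libraries overlapped for both, and the Wilson interval of 0 of 7 reads for miR-301a-3p reaches up to 35.4%. A change in the mix was not detectable with 7 reads.

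**Figure D4:**
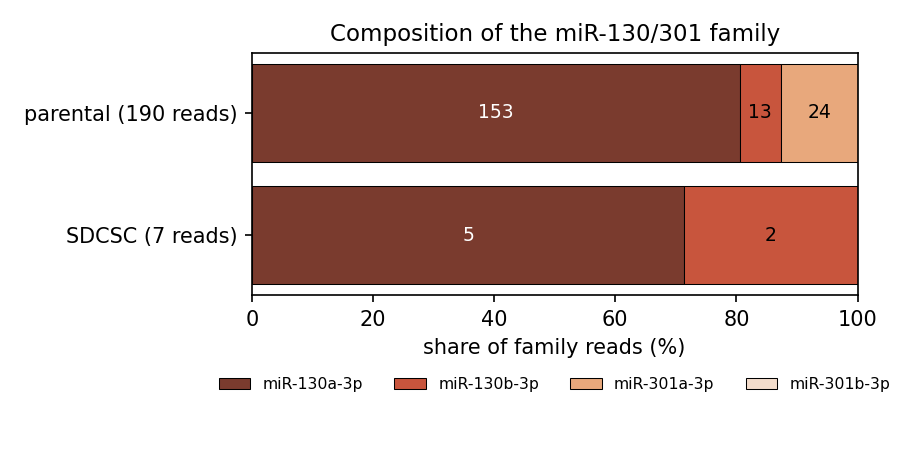
Share of family reads (%) of each member, with the reads printed in the bars, in the library of parental exosomes (190 reads) and in that of SDCSC exosomes (7 reads). miR-130a-3p takes the largest part in both, and miR-301b-3p has 0 reads in either.

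The reads came almost wholly from the 3p arms. The hairpin of miR-130a (RefSeq, GRCm38.p6, minus strand, chr2:84741115-84741178) is shown with its 3p arm in capitals, since it gave most of the family's reads.
Mir130a: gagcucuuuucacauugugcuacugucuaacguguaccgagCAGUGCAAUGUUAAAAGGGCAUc
In parental exosomes the 3p arm had 153 of 154 reads at this hairpin, 99.4% (Wilson interval 96.4 to 99.9%). At the hairpin of miR-130b it had 13 of 14 reads, 92.9% (68.5 to 98.7%), and at that of miR-301a 24 of 24, with an interval from 86.2% upward. The 5p arms miR-130a-5p and miR-130b-5p thus had 1 read each, and miR-301a-5p and miR-301b-5p had 0. In SDCSC exosomes all 4 of the 5p arms had 0 reads against 7 from the 3p arms, an interval from 64.6% upward for the 3p share. Such a preference was common: over the 87 hairpins with at least 10 parental reads from both arms together, the more abundant arm took a median of 99.5%.

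The seed was looked for among all 1623 miRNAs with a RefSeq sequence. It was found in 7, of which 3 were members of the family and 4 were others, namely miR-130c, miR-721, miR-6341 and miR-6389. These 4 had 0 reads in both libraries, so every read with this seed among the matched miRNAs came from miR-130a-3p, miR-130b-3p or miR-301a-3p. Summed by seed, the family ranked 22 among 227 seeds with a read in parental exosomes and 26 among 76 in SDCSC exosomes, where 3 seeds had 7 reads. The matched miRNAs held 83.3% of parental and 93.7% of SDCSC reads, and the ranks are over these alone.

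A pair of families carries part of the same letters at a shifted position and so has related but different seeds. They are shown with their own seeds in capitals.
miR-148a-3p: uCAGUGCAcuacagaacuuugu
miR-19b-3p: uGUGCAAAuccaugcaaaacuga
Bases 2 to 8 of miR-148a-3p are the first 7 bases of miR-130a-3p, and bases 2 to 7 of miR-19b-3p are bases 3 to 8 of miR-130a-3p. The miR-148/miR-152 family, known for repressing the DNA methyltransferase Dnmt1, had 95 parental and 18 SDCSC reads, 0.295% (0.242 to 0.361%) and 0.454% (0.287 to 0.717%). Its log2 ratio was 0.62 with an exact 95% interval from -0.19 to 1.36. By this pooled value it lay on the other side of equal shares from the miR-130/miR-301 family (-1.74), while its own interval includes no change. No test of the difference was made, as these families were set side by side with the results known.

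Its most abundant member, miR-148a-3p, had 67 and 11 reads, a log2 ratio of 0.41 (exact 95% interval -0.66 to 1.34). miR-148b-3p had 27 and 5 reads, as many in SDCSC exosomes as miR-130a-3p, and miR-152-3p 1 and 2 reads. The miR-19 family had 7 reads in parental exosomes (6 of miR-19b-3p and 1 of miR-19a-3p) and 0 in SDCSC exosomes. At its parental share 0.863 reads would have been counted, and a lower share was not detectable.

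The miRNAs most like the members were found by the distance between their pairs of log2 shares, over the 2 libraries, among miRNAs with a read in each. Nearest to miR-130a-3p were miR-30c-5p with 131 and 4 reads (distance 0.39 log2 units), miR-186-5p with 194 and 4 (0.47) and miR-125b-1-3p with 172 and 3 (0.76). Nearest to miR-130b-3p were miR-99a-5p with 10 and 3 reads (0.70), and miR-5126 and miR-877-5p, both with 8 and 2 (0.70). With 2 libraries and few reads, such a likeness says only that the counts were close.

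Marker lists of cell types also differed between the 2 libraries. The epithelial list (the miR-200 family) went from 0 of 5 markers with a read in parental to 2 of 5 in SDCSC exosomes, at 1 read each. The blood cell list went from 7 of 7 markers with a read to 1 of 7 and the intestinal list from 3 of 3 to 0 of 3, where 64.6% of all miRNAs with a parental read had none in the shallower SDCSC library. The muscle and mesenchymal list went from 5 of 5 to 2 of 5, while its summed share went from 4.39% to 5.40%. That sum rested mostly on miR-143-3p (888 and 185 reads), with miR-199a-3p at 365 and 29 reads. The other markers of this list, miR-145a-5p, miR-133a-3p and miR-1a-3p, had no SDCSC read. The part of these marker lists in the lower share of miR-130a-3p was not tested.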

How the data were processed

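Small RNA of 18 to 40 nucleotides from exosomes was made into TruSeq libraries. The authors clipped the adapter and discarded reads shorter than 18 nucleotides with Trimmomatic, and deposited an RPM value for each mature miRNA at each precursor, scaled to the reads of all entries. The build was mm10 per the submitters' processing notes, and the miRBase release is not given in the sources used here. For the exosomal RNA content the study used ncPRO-seq with RepeatMasker and Rfam features and normalized by counts shared among features. Whether the deposited miRNA values were made in this way is not stated.

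Reads were recovered by dividing by the smallest RPM above 0 (27.31 and 217.77 RPM). With the step refined to the total of 36615 and 4592 reads, 100.0% of values above 0 lay within 0.05 reads of a whole number. The highest entry per name was used, leaving 32162 and 3964 reads. Different miRNAs ligate to adapters with different efficiency, so levels of different miRNAs in a library are approximate.

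Shares carry 95% Wilson intervals and ratios exact conditional 95% intervals. A fold was called from 1.5. No test result is given for the members, since each condition has 1 library and they were chosen on this contrast. Fisher's exact test over all miRNAs was used for its number of calls only. The members and lists were chosen with earlier results of these data known. The miRNAs named are the members, their 5p arms, miRNAs with the same seed, the miR-148/miR-152 and miR-19 families, and the 3 nearest miRNAs by log2 shares for each member with a read in each library. Alternatives were other scalings (none, median of ratios, TMM factors of edgeR, deposited RPM, totals without the most abundant miRNA of each library), sums of entries, 0.5 or 5 reads added, other minimum reads, a 2-fold threshold and seed bases 2 to 7. The scripts were tested on simulated data. Loci are from GENCODE M21 (GRCm38). Python 3.11.15, scipy 1.17.1, pandas 2.3.3, R 4.3.3 and edgeR 4.0.16 were used.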

Additional observations from a re-analysis of the deposited data

How the results depend on the processing

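No paired analysis was possible because there is a single library per condition. Relative to the miRNA totals, every log2 ratio moved by -0.06 under the median of ratios, -0.06 under TMM, -0.03 with the deposited RPM, 0.15 without the most abundant miRNA of each library and -3.02 without library scaling, a setting that ignores the 8.11 times larger parental library. Without library scaling the log2 ratios were -4.94 for miR-130a-3p, -4.76 for the pooled family and -2.40 for the miR-148/miR-152 family. The last changed direction, as did miR-130b-3p, from 0.32 to -2.70, which is inside its exact interval. The ratio of miR-301a-3p depended on the reads added, from -2.59 with 0.5 reads to 0.48 with 5. With 5 reads added to both libraries miR-130a-3p was at -0.96, the pooled family at -1.002 and miR-130b-3p at 1.66. Equal added reads weigh more in the smaller SDCSC library. They raise every ratio of a miRNA with fewer SDCSC than parental reads, most at low counts, so these rises come from the setting. Without the most abundant miRNA of each library, miR-130a-3p took 0.572% and the family 0.710% of parental reads.

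The numbers of miRNAs at least 1.5-fold higher and lower, 44 and 41, were 12 and 10 with at least 10 reads in each library, 154 and 102 with a read in either, and 8 and 100 without library scaling. With a read in either, 0.5 reads were added to both libraries where a count was 0. In the shallower SDCSC library this scores miRNAs with very few parental reads and no SDCSC read as higher. The 154 thus exceed the 124 miRNAs with any SDCSC read and are not a count of miRNAs raised there. Fisher's exact test (two-sided), run after seeing the data on the recovered reads of all 336 miRNAs with any read, called 17 higher and 31 lower at a Benjamini-Hochberg adjusted p under 0.05, and compares these libraries, not the conditions. Of 121 alternative values, 108 stayed within the counting interval of the reported value or, for counts and ranks, within 1.5 times of it. Some of these could not move, such as the shares of members with 0 reads, so the count overstates stability. For the values that moved, apart from library scaling and added reads, the cause was not tested.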
